A study of Mus musculus with 12 samples.

Results

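Keratins and regulators known from trophoblast, the outer cell lineage of the early embryo that builds the placenta, were followed on 12 Illumina bead arrays of mouse embryonic stem (ES) cells. The set held 10 genes: the keratins Krt7, Krt8, Krt18 and Krt19, the regulators Tfap2c, Cdx2, Rhox6 and Rhox9, and the secreted proteins Wnt7b and Igfbp3. Its members were all probes that the platform annotation gives to these symbols, 15 of 45281 (10 of 19057 single gene symbols), and 13 of them, for 9 genes, were detected on all 3 arrays of at least 1 group. The cells were E14, a male ES line of strain 129/Ola that carries CreER, a Cre recombinase activated by 4-hydroxytamoxifen (OHT). Wild type cells were taken at day 0, and deleted cells, HDAC1-/-; HDAC2-/wt (both Hdac1 alleles removed and 1 intact allele left at Hdac2; either gene encodes a class I histone deacetylase), at day 4 after OHT (16 h, 1 uM); the labels list OHT for all 12 samples, the wild type ones included. Either genotype was cultured with LIF (leukemia inhibitory factor), the cytokine that holds mouse ES cells undifferentiated, or for 4 days without LIF, which gave 4 groups of 3 arrays numbered 1 to 3. Genotype and day divided the samples in the same way, so deletion and the days after OHT cannot be told apart. No label states that the arrays of a group were separate cultures, and the p-values then measure only a spread that may be technical.

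Trophectoderm is the first epithelium of the mouse embryo, and its cells fill with keratin filaments built from pairs of a type I keratin (Krt18 or Krt19) and a type II keratin (Krt7 or Krt8). Tfap2c encodes the transcription factor AP-2 gamma and Cdx2 a homeobox factor, and both are needed for trophoblast stem cells, while Rhox6 and Rhox9 are X-linked homeobox genes expressed in placenta and germ cells. Wnt7b is a Wnt ligand of the chorion and Igfbp3 a carrier that binds insulin-like growth factors outside the cell. Mouse ES cells rarely form trophoblast.

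The 3 keratin genes on chromosome 15 are shown by their promoters because all 3 had probes well above background and 2 of them, Krt8 and Krt18, encode the classical partners of simple epithelial filaments. The windows are those of RefSeq on GRCm38.p6, from 250 bases before to 50 bases after the annotated start, written 5′ to 3′ on the gene's own strand, and a window was found for 5 of the 10 members. Capitals mark matches on either strand to GCCNNNGGC (bound by the AP-2 family), GGGCGG (the GC box) and TATAAA (the TATA box).
Krt7 promoter, chr15:101412153-101412452, plus strand: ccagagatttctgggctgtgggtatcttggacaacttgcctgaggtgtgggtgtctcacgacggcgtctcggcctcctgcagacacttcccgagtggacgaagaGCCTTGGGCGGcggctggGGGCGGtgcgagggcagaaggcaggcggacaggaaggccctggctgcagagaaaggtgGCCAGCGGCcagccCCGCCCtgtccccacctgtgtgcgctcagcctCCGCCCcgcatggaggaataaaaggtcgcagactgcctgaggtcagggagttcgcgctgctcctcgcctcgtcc
Krt8 promoter, chr15:102004293-102004592, minus strand: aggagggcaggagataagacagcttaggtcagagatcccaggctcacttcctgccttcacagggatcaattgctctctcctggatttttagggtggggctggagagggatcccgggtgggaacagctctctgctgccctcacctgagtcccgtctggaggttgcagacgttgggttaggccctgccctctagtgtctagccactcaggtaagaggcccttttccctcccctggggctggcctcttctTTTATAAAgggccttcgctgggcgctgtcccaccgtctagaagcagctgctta
Krt18 promoter, chr15:102027966-102028265, plus strand: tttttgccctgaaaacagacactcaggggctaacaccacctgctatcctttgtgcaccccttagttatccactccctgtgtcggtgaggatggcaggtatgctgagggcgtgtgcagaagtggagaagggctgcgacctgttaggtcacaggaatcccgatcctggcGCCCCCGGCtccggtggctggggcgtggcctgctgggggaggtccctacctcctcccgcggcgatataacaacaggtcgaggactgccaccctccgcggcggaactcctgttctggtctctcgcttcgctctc
The Krt7 window held 2 AP-2 letter matches and 4 GC boxes, and 1 of the AP-2 matches overlapped a GC box. The Krt8 window held a TATA box on each strand, overlapping each other at the annotated start, and no AP-2 match. The Krt18 window held 1 AP-2 match and no GC box. Over all 32851 windows of the same length, 16.6% held the AP-2 letters, 35.7% a GC box and 13.6% a TATA box, and 14.7% held GGAATG, the TEAD letters, of which the 3 keratin windows had none. These matches are descriptions of letters and not of bound sites.

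Values are log2 intensities after background correction and quantile normalization, the detection floor lay at 6.44 to 6.61, and levels are compared within a probe only. The arrays had 14872 to 18907 detected probes, and log2 values of 2 arrays correlated at 0.974 to 0.994 inside a group and at 0.933 to 0.981 across groups. The deposited tables named the arrays differently: a column of the non-normalized table had exactly the rank order of a sample of the processed table with the same genotype (12 of 12) but the other culture (0 of 12 the same) and another number. The direction of every LIF difference below, and which culture a deletion value belongs to, therefore rests on the naming of the processed table by sample. No probe carried the symbol Hdac1. Hdac2, on the probe that was detected on 12 arrays (ILMN_2640441), read 11.45, 11.24 and 11.44 in wild type and 11.05, 11.25 and 11.11 in deleted cells with LIF. Without LIF it read 11.03, 11.23 and 11.26 against 10.85, 11.10 and 11.17. The limma differences were -0.24 ± 0.12 SE (adjusted p = 0.241) and -0.13 ± 0.12 SE (adjusted p = 0.551), and where the probe lies in Hdac2 was not analysed here. Of 8 ES cell markers, 7 were detected on all 12 arrays. Among 24 other trophoblast genes on the array, 7 (Gata2, Tead4, Ets2, Id2, Fgfr2, Dlx3 and Phlda2) were detected on all 12 arrays and 7 (Elf5, Syna, Synb, Prl2c2, Tpbpa, Ctsq and Pcdh12) on 0, while Hand1 was detected on 3 and Eomes on 8. The set is described here by its genes and not as a cell type.

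Krt7, Krt19, Tfap2c, Rhox6 and Wnt7b were higher in deleted than in wild type cells in both cultures, by 1.39 to 2.06-fold on their called probes, and Igfbp3 was lower in deleted cells without LIF. With LIF, 5 of the 13 kept probes passed the limma test (Benjamini-Hochberg adjusted p under 0.05 over 15999 probes), 5 higher and 0 lower, where 7.19% of all kept probes passed, 4.78% higher and 2.42% lower. Without LIF 8 of 13 passed, 6 higher and 2 lower, where 7.72% of all did, 4.28% higher and 3.44% lower. The probes called stood for 5 genes with LIF and 6 without. Members were chosen with earlier results of these data known, so an excess over the share of all probes is not a test. The groups did not overlap, with the deleted arrays higher, for 9 of 13 probes with LIF (16.6% of all) and for 9 of 13 without it (13.5% of all); the deleted arrays were the lower ones for 0 probes with LIF (12.4% of all) and 2 without (13.4% of all). The median difference of the 13 probes was 0.55 with LIF and 0.47 without, on the log2 scale, against 0.01 and -0.00 over all kept probes. Of the 13, ILMN_2456957 (Wnt7b) and ILMN_2727503 (Igfbp3) passed the probe filter only through the group where they read highest, and these counts include them. Arrays of the same number deviated together within each culture, and with the replicate number as a block 11 probes passed with LIF (17.1% of all) and 11 without (17.3% of all). Scaling the arrays by their medians moved the median of all probes with LIF to 0.14 and the calls over all probes from 764 higher and 387 lower to 1266 higher and 41 lower; without LIF they went from 685 and 550 to 336 and 48. In bulk RNA, more cells of a type and more RNA per cell cannot be told apart.

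**Figure D1:**
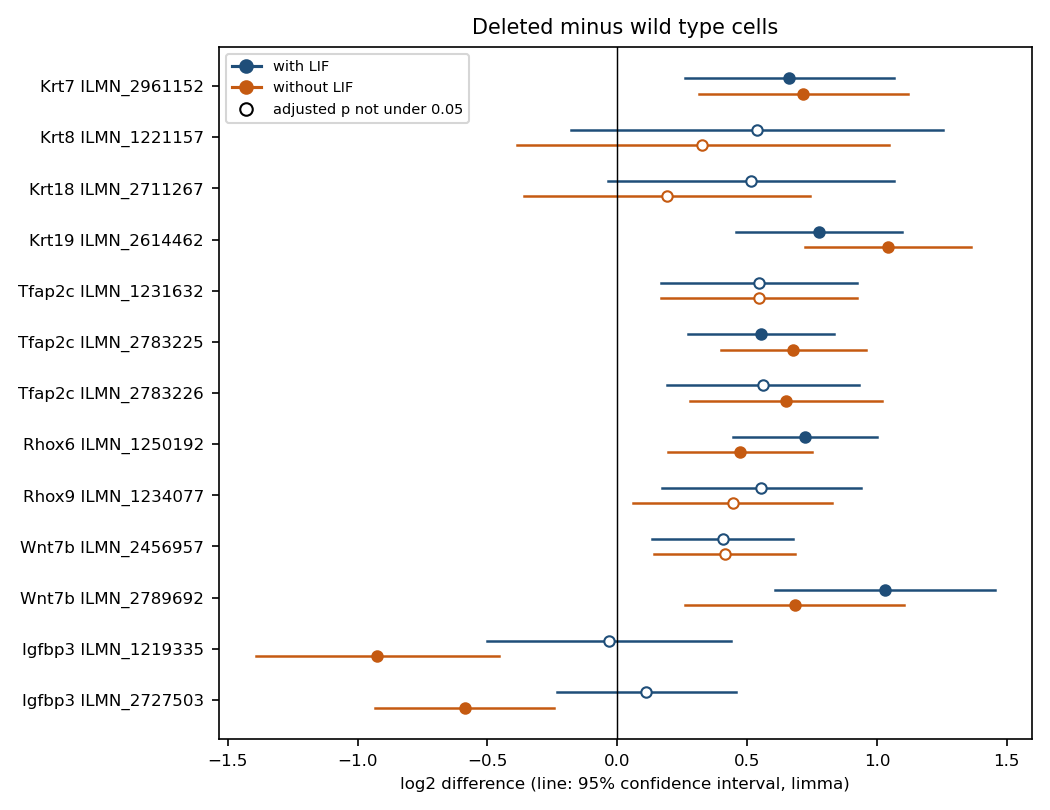
Log2 difference, deleted minus wild type cells, of each kept member probe with LIF (blue) and without LIF (orange); points are limma estimates from 3 arrays per group, lines are 95% confidence intervals, and open points had an adjusted p not under 0.05. Points lie right of 0 for 12 of 13 probes with LIF and 11 of 13 without, and both Igfbp3 probes lie left of 0 without LIF.

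Among the keratins, Krt19 and Krt7 rose in deleted cells and Krt8 and Krt18 did not pass without the block. Krt19, a type I keratin (chromosome 11, 100140810 to 100145926), read 7.83, 8.03 and 8.14 in wild type and 8.45, 8.89 and 8.99 in deleted cells with LIF. The arrays without LIF read 8.59, 8.68 and 8.71 in wild type and 9.51, 9.67 and 9.92 in deleted cells. All 3 deleted arrays were above all 3 wild type arrays in either culture. The rise was 1.71-fold with LIF (log2 difference 0.78 ± 0.15 SE, adjusted p = 0.00855) and 2.06-fold without (1.04 ± 0.15 SE, adjusted p = 0.00138). Each call was kept whichever of the 12 arrays was left out. The group means of Krt19 rose in the order 8.00 (wild type, LIF present), 8.66 (wild type, LIF absent), 8.78 (deleted, LIF present) and 9.70 (deleted, LIF absent), and the arrays behind 8.66 and 8.78 overlapped.

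Krt7, the type II keratin of ducts and trophoblast (chromosome 15, 101412403 to 101427806), read 7.75, 8.06 and 7.71 in wild type and 8.46, 8.39 and 8.66 in deleted cells with LIF. In cells without LIF the values were 8.00, 7.96 and 7.93 against 8.54, 8.28 and 9.22. Deleted arrays were again the higher ones without overlap, and deleted array 3 without LIF was the highest of the 12. Krt7 rose 1.58-fold with LIF (0.66 ± 0.19 SE, adjusted p = 0.0482) and 1.64-fold without (0.72 ± 0.19 SE, adjusted p = 0.0336). With LIF the call was lost without any 1 of the 6 arrays compared, or without wild type array 2 or 3 of the other culture, with an adjusted p of up to 0.162. Without LIF it was lost without any 1 of the 3 wild type arrays or deleted array 3, and the lowest difference among the 12 repeats was 0.45. A neqc-type correction ended both Krt7 calls (adjusted p = 0.0615 and 0.0513), no filter on dim probes that with LIF (adjusted p = 0.0711), and median scaling or only the 6 arrays compared that without LIF (adjusted p = 0.113 and 0.0994).

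Krt8 (chromosome 15, 101996711 to 102004342) and Krt18 (chromosome 15, 102028216 to 102032026), partners in 1 filament, varied strongly among the arrays of a group. Krt8, on the probe ILMN_1221157, read 9.81, 10.42 and 11.11 in wild type and 10.59, 10.88 and 11.49 in deleted cells with LIF. Without LIF it read 11.09, 11.69 and 11.67 against 11.23, 11.79 and 12.41. Each deleted array was above the wild type array of its own number in both cultures, while the groups overlapped. The difference was 0.54 ± 0.33 SE with LIF (adjusted p = 0.364, and 0.0135 with the replicate block) and 0.33 ± 0.33 SE without (adjusted p = 0.603, and 0.109 with the block). With 1 array left out the Krt8 difference ranged from 0.22 to 0.87 with LIF and from 0.03 to 0.62 without. The second Krt8 probe, ILMN_1229241, was detected on 0 arrays, read 5.90 to 6.57 and gives no fold.

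Krt18 read 9.15, 9.47 and 9.92 in wild type and 9.60, 10.00 and 10.50 in deleted cells with LIF. The arrays without LIF read 10.87, 10.78 and 10.91 against 10.68, 10.84 and 11.62. The deleted arrays were the higher of each pair with LIF, and of 2 of the 3 pairs without. Krt18 differed by 0.52 ± 0.26 SE with LIF (adjusted p = 0.246, and 0.0222 with the block) and by 0.19 ± 0.26 SE without (adjusted p = 0.709, and 0.391 with the block). With 1 array left out the Krt18 difference ranged from 0.28 to 0.73 with LIF and from -0.10 to 0.38 without. The intervals of Krt8 and Krt18 without LIF, -0.39 to 1.04 and -0.36 to 0.74, include differences as large as that of Krt7.

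**Figure D2:**
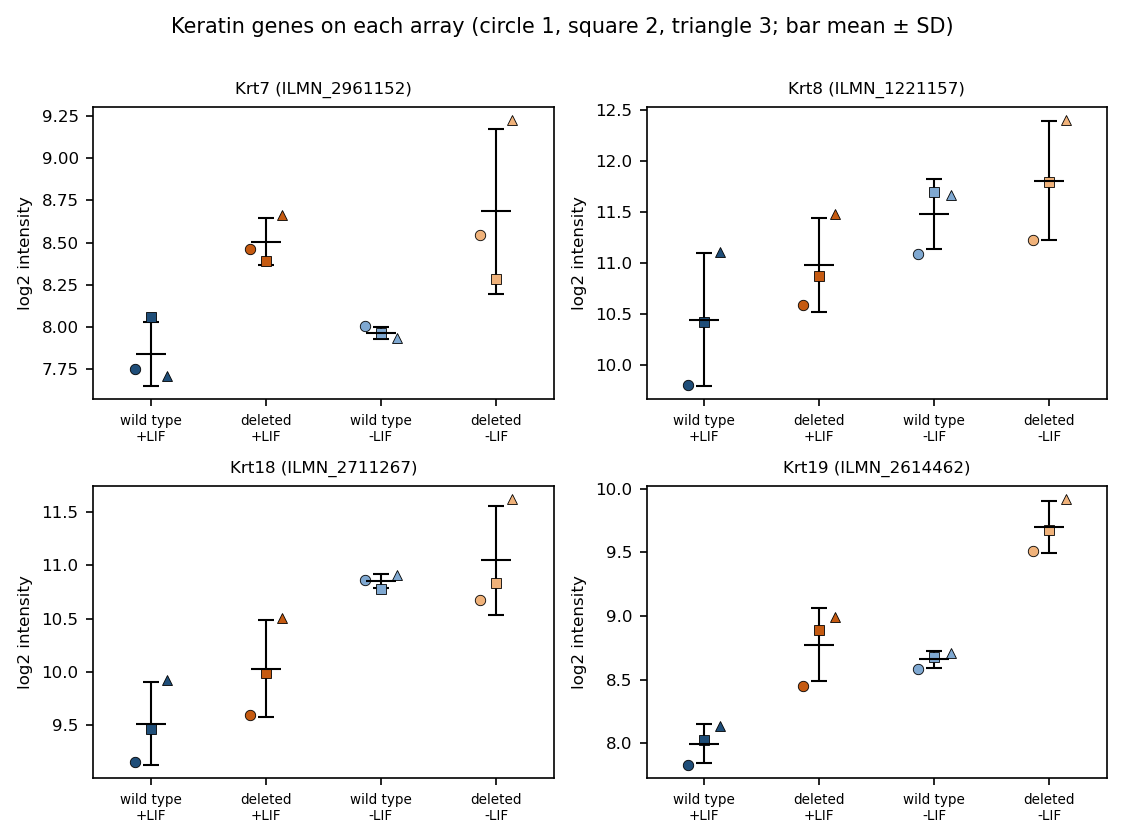
Log2 intensity of the 4 keratin genes on each of the 12 arrays, with the mean and SD of each group of 3; circles, squares and triangles are arrays 1, 2 and 3. Krt19 reads 7.83 to 8.14 in wild type cells with LIF and 9.51 to 9.92 in deleted cells without it, and array 3 is the highest of its group in 4 of 4 groups for Krt18 and Krt19.

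Array number and keratin level moved together: array 3 was the highest of its group in 4 of 4 groups for Krt18 and Krt19 and in 3 of 4 for Krt8. Rhox6, Rhox9 and the Tfap2c probe ILMN_1231632 had array 1 as the highest in 4 of 4 groups. Across the cultures this numbering rests on the naming of the processed table. Some markers of other cells were also higher in deleted cells. At 1 probe per gene 8.7% of 9527 genes passed with LIF and 9.18% without. Of 14 endoderm markers, 7 had kept probes, and 4 of these passed with LIF and 3 without, higher in each case. Their summed linear level was 1255 to 1560 in wild type and 2058 to 2407 in deleted cells with LIF, and 1347 to 1587 against 1939 to 2150 without, while Gata4, Foxa2, Afp and Ttr were detected on 0 arrays. Of 8 fibroblast markers 3 were kept, and 3 rose with LIF and 0 without, where 1 had an unadjusted p under 0.05 (sums 466 to 733 against 1088 to 1190, and 341 to 671 against 591 to 884). Of these, Col1a1 and Pdgfrb lay near the detection floor and were detected on 4 and 6 arrays. The filter could thus keep them through a group where they were high. The sums follow mainly Thy1 (group means 8.34 to 9.91), and Col1a2, Lum and Dcn were detected on 0 arrays. Of 8 surface ectoderm markers 5 were kept, and 0 passed with LIF, where 1 had an unadjusted p under 0.05, and 1 without (sums 440 to 644 against 525 to 710, and 420 to 598 against 459 to 860). Endoderm also makes these keratins, and the part of such cells in the keratin values was not tested.

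Other genes of the filament system were counted at 1 probe per gene, against the same 8.7% with LIF and 9.18% without. The lists were written with results of these data known. Of the 52 list differences printed here and in the paragraphs on other lists, 17 lost their call with median scaling, 10 with no filter on dim probes, 4 with a neqc-type correction, 3 with only the arrays compared and 2 with plain log2 values. Under the other naming of the arrays 11 lost their call and 27 reversed, and of the fits that left out 1 array, 89 lost a call and 535 kept it. Those of the 3 other keratins were among them. Of 41 other keratins 7 were kept: 0 passed with LIF (1 at an unadjusted limma p under 0.05) and 3 rose without, Krt42 by 0.48 ± 0.10 SE (adjusted p = 0.0132), Krt20 by 0.56 ± 0.14 SE (adjusted p = 0.0284) and Krt17 by 0.80 ± 0.23 SE (adjusted p = 0.0494). Krt20 was detected on 9 arrays, and its wild type mean without LIF, 6.355, lay below the detection floor. The median of the 7 kept keratins was 0.25 with LIF and 0.23 without, against 0.03 and 0.00 over all genes. Krt17 was also the surface ectoderm marker that passed without LIF, so these counts overlap. Of 10 desmosome and filament anchor genes 7 were kept, and 2 rose in both cultures. Ppl, the linker periplakin, rose by 0.64 ± 0.13 SE and 0.72 ± 0.13 SE (adjusted p = 0.0132 and 0.00641). Plec, the linker plectin, rose by 0.50 ± 0.13 SE and 0.59 ± 0.13 SE (adjusted p = 0.0315 and 0.0134). Of 8 genes of other intermediate filaments, all kept, 1 rose in either culture, Lmna, which encodes nuclear lamins A and C, by 0.67 ± 0.19 SE and 0.89 ± 0.19 SE (adjusted p = 0.0453 and 0.0116).

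Tfap2c (chromosome 2, 172545678 to 172558622) was read by 3 kept probes, and all 3 read higher in deleted cells by about the same amount. The brightest, ILMN_2783225, read 11.03, 10.66 and 10.82 in wild type and 11.45, 11.38 and 11.35 in deleted cells with LIF. In cells without LIF the values were 9.82, 9.51 and 9.55 against 10.27, 10.14 and 10.50. The deleted arrays were higher without overlap in both cultures, and the arrays without LIF were the lower ones in both genotypes. This probe rose by 0.55 ± 0.13 SE with LIF (1.47-fold, adjusted p = 0.0234) and by 0.68 ± 0.13 SE without (1.6-fold, adjusted p = 0.00768). The call with LIF was lost without wild type array 2 or 3 or any 1 of the 3 deleted arrays with LIF (adjusted p up to 0.0928), and the call without LIF was kept in 12 of 12 repeats. With no filter on dim probes the adjusted p with LIF was 0.0501.

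The Tfap2c probe ILMN_2783226 read 9.85, 9.63 and 9.29 against 10.32, 10.07 and 10.07 with LIF, and 8.60, 8.16 and 8.26 against 8.83, 8.83 and 9.31 without, wild type first. It differed by 0.56 ± 0.17 SE with LIF (adjusted p = 0.0634, and 0.0197 with the replicate block) and rose by 0.65 ± 0.17 SE without (adjusted p = 0.035). The call without LIF was lost without deleted array 2 or 3 with LIF, wild type array 2 or 3 without LIF, or deleted array 3 without LIF (adjusted p up to 0.141). It was also lost with a neqc-type correction, median scaling, no filter and only the arrays compared (adjusted p = 0.0514, 0.0514, 0.0502 and 0.0726). The dimmest probe, ILMN_1231632, read 8.14, 8.07 and 7.74 against 8.86, 8.41 and 8.32 with LIF, and 7.53, 7.12 and 6.95 against 7.95, 7.60 and 7.68 without. Its difference was 0.55 ± 0.18 SE in either culture (adjusted p = 0.0771 with LIF and 0.0758 without), and it passed with the block (adjusted p = 0.00299 and 0.00283). The 3 probes thus had the same sign and non-overlapping groups in both cultures, and differed in which passed.

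Cdx2 (chromosome 5, 147300900 to 147307249) was not well above background. Its probe read 6.30, 6.42 and 6.55 in wild type and 6.38, 6.45 and 6.64 in deleted cells with LIF, and 6.42, 6.26 and 6.59 against 6.12, 6.35 and 6.89 without. It was detected on 0 and 2 arrays of these groups with LIF and on 1 and 1 without, so it did not pass the probe filter and no fold is given.

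Rhox6 (chromosome X, 37827055 to 37829857) and Rhox9 (chromosome X, 37899097 to 37901770) read higher in deleted cells, and their levels with and without LIF lay close together. Rhox6 read 7.68, 7.42 and 7.36 in wild type and 8.26, 8.15 and 8.21 in deleted cells with LIF. Without LIF it read 7.58, 7.48 and 7.31 against 8.18, 7.82 and 7.80. No wild type array reached a deleted array of either culture. Rhox6 rose by 0.72 ± 0.13 SE with LIF (1.65-fold, adjusted p = 0.00562), a call kept in 12 of 12 repeats. It rose by 0.47 ± 0.13 SE without LIF (1.39-fold, adjusted p = 0.0404), which passed in 3 of 12 repeats only, those without wild type array 1 or 3 with LIF or wild type array 1 without LIF, and had an adjusted p of up to 0.16 in the others. With no filter on dim probes its adjusted p was 0.102, and with only the 6 arrays of the culture 0.0985.

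Rhox9 read 8.73, 8.19 and 8.26 in wild type and 9.25, 8.81 and 8.79 in deleted cells with LIF. The arrays without LIF read 8.56, 8.09 and 8.24 against 8.99, 8.62 and 8.61. Array 1 was high in every group, the deleted array was above the wild type array in each same-numbered pair, and the groups did not overlap. The difference was 0.55 ± 0.18 SE with LIF (adjusted p = 0.0762, and 0.00114 with the replicate block) and 0.44 ± 0.18 SE without (adjusted p = 0.148, and 0.00491 with the block). Rhox genes are close paralogs, and cross-hybridization between them was not tested.

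**Figure D3:**
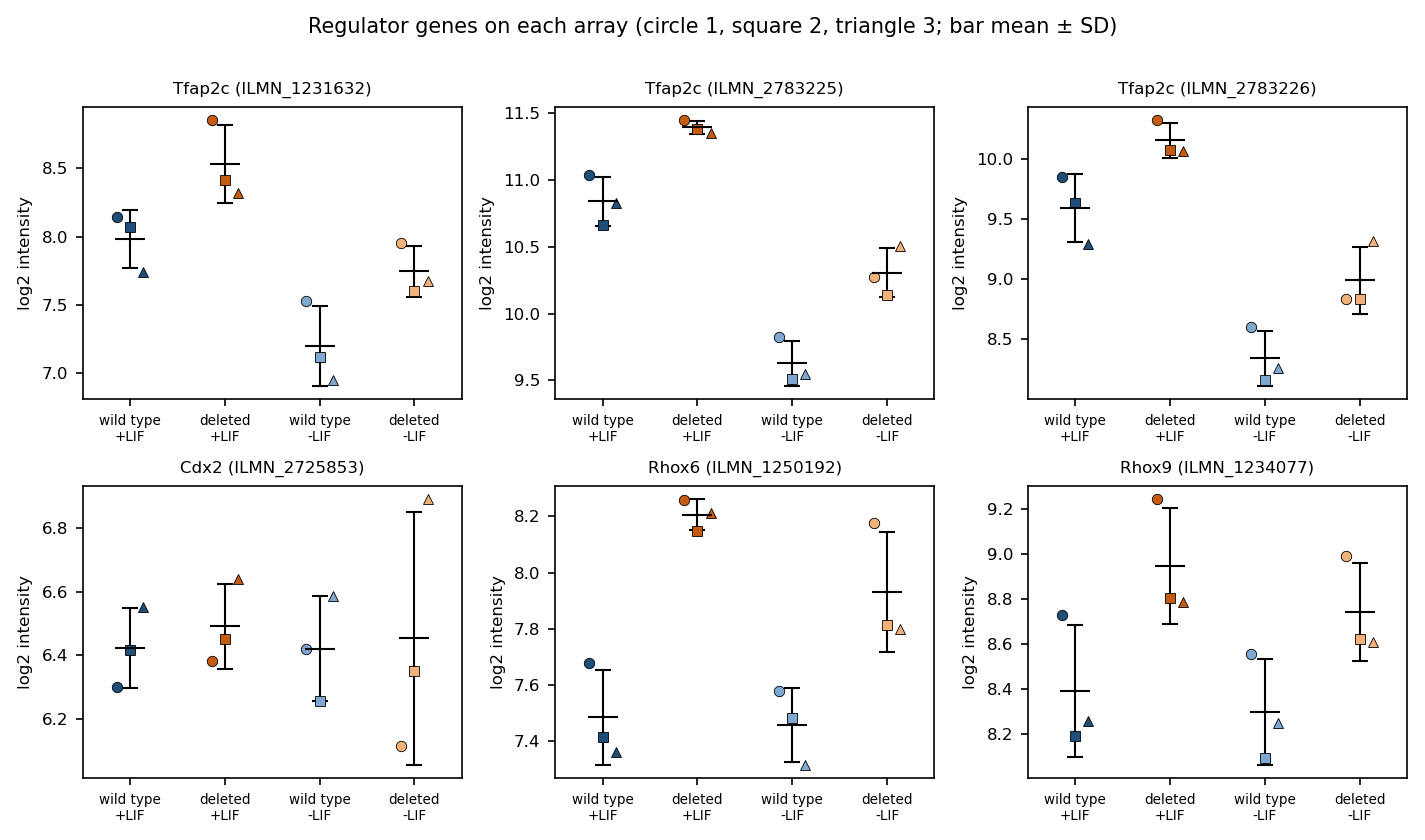
Log2 intensity of the 3 Tfap2c probes, Cdx2, Rhox6 and Rhox9 on each of the 12 arrays, with the mean and SD of each group of 3; circles, squares and triangles are arrays 1, 2 and 3. For the 3 Tfap2c probes the deleted arrays lie above the wild type arrays of their culture and the arrays without LIF below those with LIF, while Cdx2 stays between 6.12 and 6.89, around the detection floor.

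The lists of this paragraph were counted at 1 probe per gene, where 8.7% of all genes passed with LIF and 9.18% without. Of 7 other Rhox genes on the array 3 were kept, and 1 of these rose in either culture, Rhox13 by 0.47 ± 0.11 SE with LIF (adjusted p = 0.0188) and 0.74 ± 0.11 SE without (adjusted p = 0.00134). Of 4 other Tfap2 genes 1 was kept and 0 passed, and of 2 other Cdx genes 1 was kept and 0 passed; at an unadjusted limma p under 0.05 the other Tfap2 gene passed without LIF, and 23.3% of all probes did with LIF and 23.5% without. Of 24 other trophoblast genes 14 were kept. With LIF 1 rose and 1 fell. Fgfr2, the receptor that receives FGF in trophoblast, rose by 1.34 ± 0.20 SE (adjusted p = 0.00226), and Phlda2, an imprinted gene that limits placental growth, fell by 0.96 ± 0.14 SE (adjusted p = 0.00152). Without LIF 3 rose and 1 fell: Fgfr2 rose by 1.58 ± 0.20 SE (adjusted p = 0.000707), Id2, an inhibitor of helix-loop-helix factors, by 1.14 ± 0.16 SE (adjusted p = 0.00129), and Gata2 by 0.58 ± 0.15 SE (adjusted p = 0.0272), while Phlda2 fell by 1.26 ± 0.14 SE (adjusted p = 0.000149). The median of the 14 was 0.05 with LIF and 0.23 without. Their summed level over 24 genes was 3300 to 3620 in wild type and 2848 to 3098 in deleted cells with LIF, and 3854 to 3983 against 3536 to 4675 without. Phlda2 was the brightest of the 24 in wild type cells (mean 10.71 in both cultures), so its fall weighs most in these sums. The lower sum with LIF is therefore no measure of the list as a whole.

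Of the secreted proteins, Wnt7b was higher in deleted cells and Igfbp3 lower, the latter in the culture without LIF. Wnt7b (chromosome 15, 85535437 to 85581821), on the brighter probe ILMN_2789692, read 7.72, 7.40 and 7.64 in wild type and 8.41, 8.57 and 8.88 in deleted cells with LIF. In cells without LIF the values were 7.49, 7.55 and 7.37 against 7.84, 7.91 and 8.71. The groups did not overlap, and deleted array 3 was the highest in both cultures. Wnt7b rose 2.04-fold with LIF (1.03 ± 0.20 SE, adjusted p = 0.00841), which was kept in 12 of 12 repeats. Without LIF it rose 1.6-fold (0.68 ± 0.20 SE, adjusted p = 0.0496), and this passed only in the 2 repeats without wild type array 1 with LIF or deleted array 1 without LIF (differences of 0.40 to 0.84 over the 12 repeats, adjusted p up to 0.158). This Wnt7b call was also lost with plain log2 values, a neqc-type correction, median scaling, no filter and only the arrays compared (adjusted p = 0.052, 0.0617, 0.163, 0.0675 and 0.116).

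The second Wnt7b probe, ILMN_2456957, lay near the detection floor and was detected on 1 of 3 wild type and 3 of 3 deleted arrays with LIF. The probe passed the filter only through the deleted arrays with LIF, where it read highest, so its difference with LIF is no separate support. It read 6.24, 6.60 and 6.49 in wild type and 6.88, 6.72 and 6.95 in deleted cells with LIF, and 6.17, 6.22 and 6.30 against 6.47, 6.61 and 6.85 without. The deleted arrays were higher without overlap in both cultures. The difference with LIF was 0.41 ± 0.13 SE (adjusted p = 0.067, and 0.0194 with the replicate block). Without LIF the probe was not well above background on any wild type array and was detected on 2 of 3 deleted arrays. Its deleted mean was 1.07-fold above the detection floor put in place of the wild type values. The p-values there belong to the measured values and not to this fold (limma adjusted p = 0.0614, and 0.0176 with the block).

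Igfbp3 (chromosome 11, 7206086 to 7215498), on the probe ILMN_1219335, read 7.15, 6.81 and 7.52 in wild type and 7.18, 6.91 and 7.29 in deleted cells with LIF. Without LIF it read 8.28, 9.04 and 9.00 against 7.63, 8.17 and 7.76. The groups overlapped with LIF, and without LIF the 3 wild type arrays were above the 3 deleted ones. Igfbp3 differed by -0.03 ± 0.22 SE with LIF (adjusted p = 0.952, 95% confidence interval -0.50 to 0.44) and fell by 0.92 ± 0.22 SE without LIF (1.9-fold lower, adjusted p = 0.021). The fall was lost without wild type array 2 or 3 or deleted array 1 or 3 of that culture (adjusted p up to 0.0973). It was also lost with a neqc-type correction, median scaling and only the arrays compared (adjusted p = 0.0591, 0.212 and 0.0569).

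The second Igfbp3 probe, ILMN_2727503, read 6.32, 6.76 and 6.14 against 6.42, 6.52 and 6.61 with LIF, and 7.07, 7.41 and 7.45 against 6.52, 6.91 and 6.73 without. It was detected on 1 wild type and 2 deleted arrays with LIF and on 3 wild type and 2 deleted arrays without it. This probe passed the filter only through the wild type arrays without LIF, its highest group, and its fall there is no separate support. It differed by 0.11 ± 0.16 SE with LIF (adjusted p = 0.728) and fell by 0.59 ± 0.16 SE without (adjusted p = 0.0405). That fall passed in 5 of 12 repeats and was lost without any 1 of the 3 deleted arrays with LIF, wild type array 2 or 3 without LIF, or deleted array 1 or 3 without LIF (adjusted p up to 0.151). Median scaling, no filter and only the arrays compared ended it as well (adjusted p = 0.262, 0.0685 and 0.0645).

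**Figure D4:**
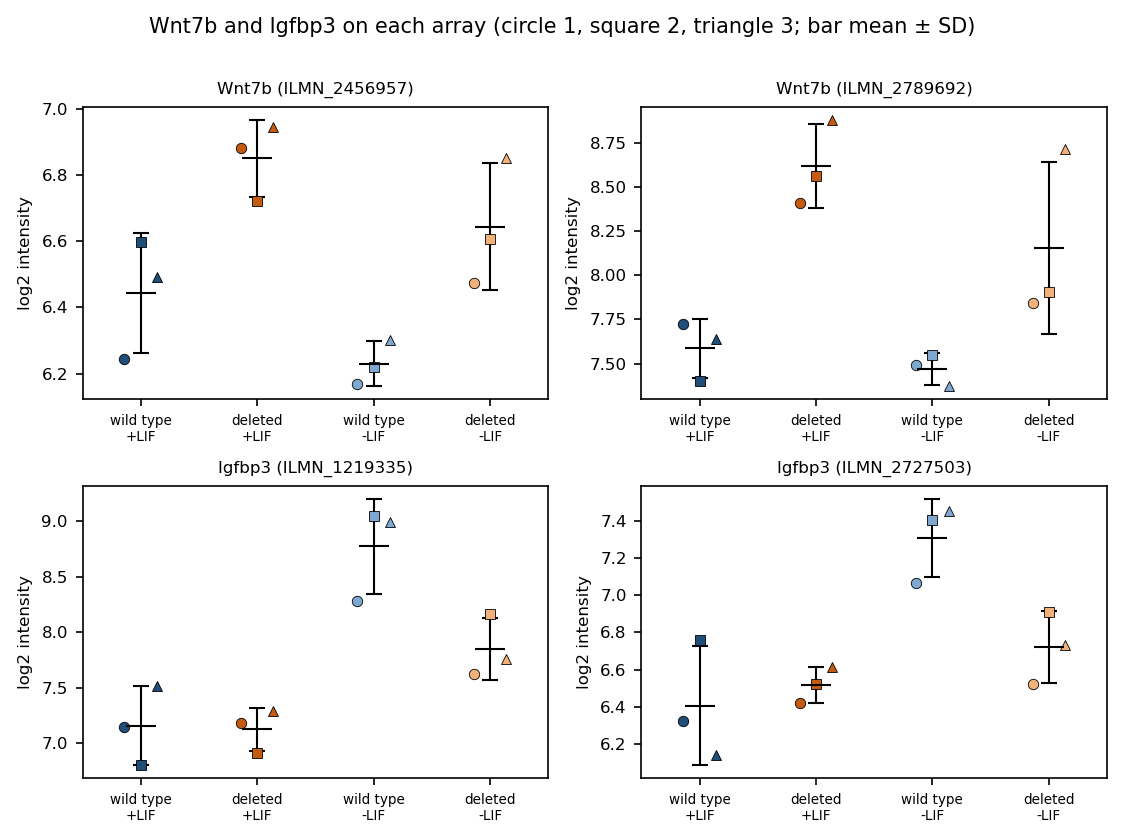
Log2 intensity of the 2 Wnt7b and 2 Igfbp3 probes on each of the 12 arrays, with the mean and SD of each group of 3; circles, squares and triangles are arrays 1, 2 and 3. Igfbp3 on ILMN_1219335 reads 6.81 to 7.52 on the 6 arrays with LIF, 8.28 to 9.04 in wild type and 7.63 to 8.17 in deleted cells without LIF.

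Whether the deletion difference itself depended on culture was tested as an interaction. None of the 13 probes passed in limma (0.0188% of all 15999 probes did), 2 had an unadjusted p under 0.05 (6.96% of all), and with the replicate number as a block 0 passed (0.125% of all). Both were Igfbp3: the difference without LIF minus that with LIF was -0.89 ± 0.31 SE on ILMN_1219335 (limma adjusted p = 0.56) and -0.70 ± 0.23 SE on ILMN_2727503 (limma adjusted p = 0.541). The latter probe was kept only through the wild type arrays without LIF, where it read highest. With pairs formed within each culture only, an alternative chosen after seeing the data that does not use numbers across cultures, ILMN_1219335 passed (adjusted p = 0.0329) and ILMN_2727503 did not (adjusted p = 0.0777), where 0.919% of all probes passed. That the deletion difference depends on culture is therefore claimed for no member, Igfbp3 included. The limma adjusted p of the other members lay at 0.881 or above. Their difference without LIF minus that with LIF was 0.26 ± 0.21 SE for Krt19 and -0.25 ± 0.18 SE for Rhox6.

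Partners of the secreted genes were counted between deleted and wild type cells in the same way, where 8.7% of genes passed with LIF and 9.18% without. Of 18 other Wnt ligands 5 were kept, and 1 rose with LIF, Wnt3a by 0.69 ± 0.15 SE (adjusted p = 0.0146), and 1 without, Wnt7a by 1.01 ± 0.26 SE (adjusted p = 0.0285). Wnt3a was detected on 7 arrays and Wnt7a on 10, and the wild type mean of Wnt7a without LIF, 6.39, lay below the detection floor. The filter could keep such probes through a group where they were high. Of 10 target genes of Wnt signalling on the array 5 were kept, and 1 fell with LIF, Ccnd1, a cyclin, by 0.82 ± 0.18 SE (adjusted p = 0.0187), and 0 passed without (1 at an unadjusted p under 0.05). Of 6 other Igfbp genes 5 were kept, and Igfbp6 rose with LIF by 0.58 ± 0.16 SE (adjusted p = 0.0374) and Igfbp4 without by 0.61 ± 0.14 SE (adjusted p = 0.0194). Igfbp6 was detected on 6 arrays, and its wild type mean with LIF, 6.13, lay below the detection floor. The filter could thus keep Igfbp6 through a group where it was high. Of 9 genes of the insulin-like growth factor axis 7 were kept. Igf2, the growth factor that Igfbp3 can bind, rose by 1.08 ± 0.13 SE with LIF (adjusted p = 0.000588) and by 1.31 ± 0.13 SE without (adjusted p = 0.000104). Igf2r, the receptor that removes Igf2, rose with LIF by 0.54 ± 0.12 SE (adjusted p = 0.0207).

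Between the cultures, Krt8, Krt18, Krt19 and Igfbp3 were higher and Tfap2c lower without LIF, under the naming of the processed table. In wild type cells 8 of the 13 probes passed, 5 higher and 3 lower without LIF, where 18% of all kept probes passed, 9.37% higher and 8.64% lower. In deleted cells 5 passed, 2 higher and 3 lower, where 8.75% of all did, 4.15% higher and 4.6% lower. The groups did not overlap for 4 probes higher (16.6% of all) and 3 lower (15.9% of all) in wild type, and for 3 higher (12.5% of all) and 3 lower (16% of all) in deleted cells. The median difference of the members was -0.03 in wild type and -0.21 in deleted cells, against 0.00 and -0.02 over all probes. These comparisons use the same arrays as those above. In deleted cells, scaling by the medians turned the calls over all probes from 664 higher and 736 lower into 154 and 728.

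Krt18 rose by 1.34 ± 0.26 SE without LIF in wild type cells (2.53-fold, adjusted p = 0.00251) and by 1.01 ± 0.26 SE in deleted cells (2.02-fold, adjusted p = 0.0243). Its 3 wild type arrays without LIF, at 10.78 to 10.91, lay close together and all above the 3 with LIF. The call in deleted cells was lost without deleted array 1 or 2 with LIF or deleted array 3 without LIF (adjusted p up to 0.122), and with median scaling (adjusted p = 0.219). Krt8 rose by 1.04 ± 0.33 SE in wild type cells (2.05-fold, adjusted p = 0.0457), although its wild type array 3 with LIF, at 11.11, was above wild type array 1 without LIF, at 11.09. This call was lost in 6 of 12 repeats, those without wild type array 1 or 2 or deleted array 2 with LIF, wild type array 2 or 3 without LIF, or deleted array 2 without LIF (adjusted p up to 0.166), and with a neqc-type correction (adjusted p = 0.0731) or median scaling (adjusted p = 0.127). In deleted cells Krt8 differed by 0.83 ± 0.33 SE (adjusted p = 0.161, and 0.000585 with the replicate block).

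Krt19 rose by 0.66 ± 0.15 SE in wild type (1.58-fold, adjusted p = 0.00717) and by 0.93 ± 0.15 SE in deleted cells (1.9-fold, adjusted p = 0.00139). It was the keratin that passed in all 4 comparisons, and all 4 calls were kept in 12 of 12 repeats, while median scaling ended those between cultures (adjusted p = 0.156 and 0.0925). Krt7 differed by 0.13 ± 0.19 SE in wild type (adjusted p = 0.696, 95% confidence interval -0.28 to 0.53) and by 0.18 ± 0.19 SE in deleted cells (adjusted p = 0.658, -0.23 to 0.58), and its groups overlapped. Without the block the 4 keratins thus fell into Krt7, called between genotypes, Krt8 and Krt18, called between cultures, and Krt19, called in both; differences between these genes were not tested. The genes nearest to Krt19 in their 4 group means, each centred on its own mean, were Tns4, Rbp7 and Flnc among 9518 other genes (root mean square differences of 0.099, 0.101 and 0.104 on the log2 scale).

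Tfap2c fell on all 3 probes without LIF. In wild type cells the fall was 1.21 ± 0.13 SE on ILMN_2783225 (adjusted p = 3.03e-05), 1.25 ± 0.17 SE on ILMN_2783226 (adjusted p = 0.00021) and 0.79 ± 0.18 SE on ILMN_1231632 (adjusted p = 0.00704). In deleted cells it was 1.09 ± 0.13 SE (adjusted p = 0.000179), 1.16 ± 0.17 SE (adjusted p = 0.000744) and 0.79 ± 0.18 SE (adjusted p = 0.0127), in the same order of probes. The groups did not overlap in any of these 6 comparisons. The last of the 6 was lost without deleted array 1 with LIF or deleted array 2 without LIF (adjusted p up to 0.0704). The order of group means on ILMN_2783225 was 9.63 (wild type, LIF absent), 10.31 (deleted, LIF absent), 10.84 (wild type, LIF present) and 11.39 (deleted, LIF present), with no overlap between neighbours. The pattern of ILMN_2783226 was nearest to those of Ccdc3, Fam183b and Itpka (root mean square differences of 0.054, 0.056 and 0.076).

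Rhox6, Rhox9 and Wnt7b gave no call between the cultures. Rhox6 differed by -0.03 ± 0.13 SE in wild type (adjusted p = 0.915) and -0.28 ± 0.13 SE in deleted cells (adjusted p = 0.233), and Rhox9 by -0.09 ± 0.18 SE (adjusted p = 0.761) and -0.21 ± 0.18 SE (adjusted p = 0.579). Wnt7b differed by -0.12 ± 0.20 SE in wild type (adjusted p = 0.733) and by -0.47 ± 0.20 SE in deleted cells (adjusted p = 0.183) on ILMN_2789692, and by -0.21 ± 0.13 SE in deleted cells (adjusted p = 0.393) on ILMN_2456957. In wild type cells this dim Wnt7b probe was not well above background on any array without LIF, and no difference is given. The 95% confidence interval of Wnt7b in deleted cells on ILMN_2789692 ran from -0.89 to -0.04.

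Igfbp3 rose without LIF in wild type cells by 1.62 ± 0.22 SE on ILMN_1219335 (3.07-fold, adjusted p = 0.000185) and by 0.90 ± 0.16 SE on ILMN_2727503 (adjusted p = 0.00156). The second probe was detected on 1 of the 3 wild type arrays with LIF, where its mean was 6.41, so no fold is given for it. It was kept only through the wild type arrays without LIF, and its rise there is no separate support. In deleted cells Igfbp3 differed by 0.73 ± 0.22 SE on the first probe, without overlap (adjusted p = 0.0556, and 0.0147 with the replicate block), and by 0.20 ± 0.16 SE on the second (adjusted p = 0.534). The deleted arrays without LIF, at 7.63 to 8.17 on ILMN_1219335, thus lay between the arrays with LIF and the wild type arrays without it. Zmynd8, Stx3 and Rhobtb3 had the nearest patterns (root mean square differences of 0.031, 0.116 and 0.121).

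**Figure D5:**
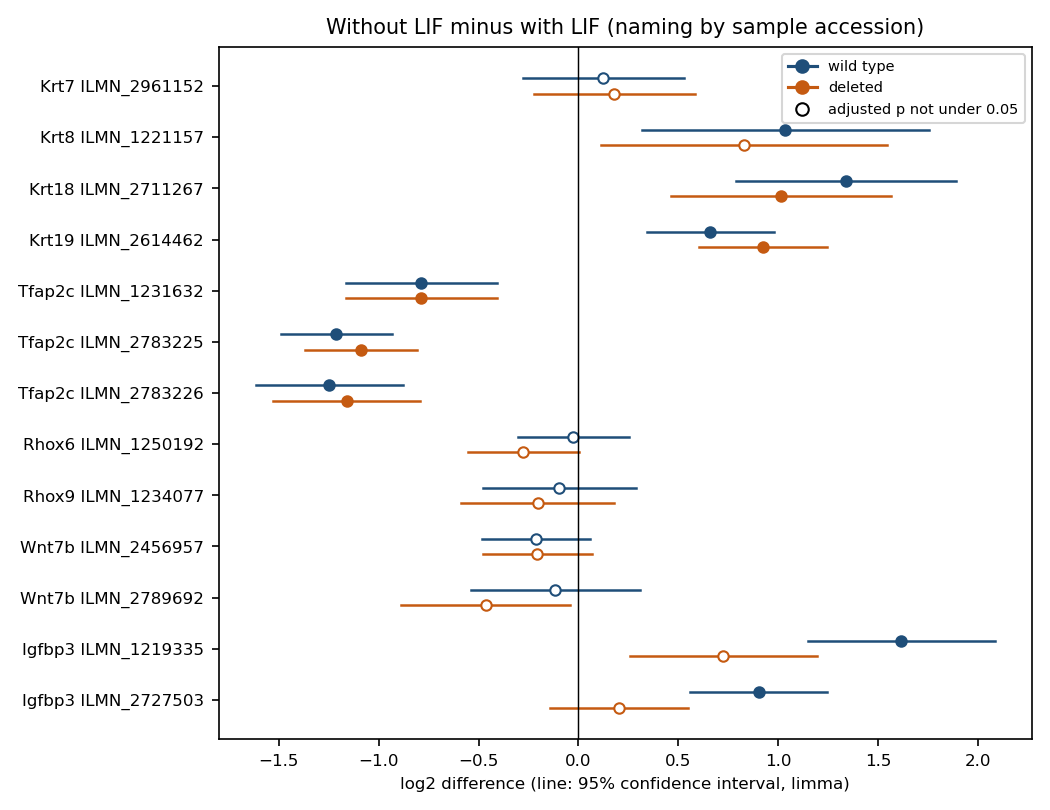
Log2 difference, without LIF minus with LIF, of each kept member probe in wild type (blue) and deleted cells (orange); points are limma estimates from 3 arrays per group, lines are 95% confidence intervals, and open points had an adjusted p not under 0.05. The 3 Tfap2c probes lie at -1.25 to -0.79 in both genotypes, Krt18 at 1.34 and 1.01, and Igfbp3 (ILMN_1219335) at 1.62 in wild type and 0.73 in deleted cells; all signs turn under the other naming of the arrays.

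The wider lists without LIF, at 1 probe per gene (20.2% of 9527 genes passed in wild type and 10.2% in deleted cells), were as follows. Of the 3 kept other Rhox genes 3 fell in both genotypes: Rhox10 by 1.76 ± 0.17 SE and 1.71 ± 0.17 SE (adjusted p = 1.32e-05 and 4.74e-05), Rhox13 by 1.17 ± 0.11 SE and 0.89 ± 0.11 SE (adjusted p = 6.88e-06 and 0.000151), and Rhox5 by 0.63 ± 0.12 SE and 0.75 ± 0.12 SE (adjusted p = 0.00238 and 0.00135). Tfap2a, the paralog of Tfap2c that acts in surface ectoderm and trophoblast, rose by 0.93 ± 0.16 SE in wild type and 0.58 ± 0.16 SE in deleted cells (adjusted p = 0.00137 and 0.0408), the opposite sign to Tfap2c. Of the 7 kept other keratins 0 rose and 1 fell in either genotype, Krt42, by 1.90 ± 0.10 SE and 1.54 ± 0.10 SE (adjusted p = 6.61e-08 and 1.29e-06). Of 14 kept trophoblast genes 4 rose and 1 fell in wild type and 5 rose and 0 fell in deleted cells, among them Fgfr2 by 1.05 ± 0.20 SE and 1.30 ± 0.20 SE (adjusted p = 0.00258 and 0.00111) and, in deleted cells, Id2 by 1.13 ± 0.16 SE (adjusted p = 0.00055).

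Of 7 genes of the insulin-like growth factor axis 6 rose and 0 fell in wild type, and 5 rose and 0 fell in deleted cells. Igf2 rose by 0.95 ± 0.13 SE and 1.18 ± 0.13 SE (adjusted p = 0.00021 and 0.000104), and Irs2, an adaptor of the insulin and IGF receptors, by 1.35 ± 0.15 SE and 1.22 ± 0.15 SE (adjusted p = 3.83e-05 and 0.000209). The median of the 7 was 0.78 in wild type and 0.59 in deleted cells, against 0.00 and -0.02 over all genes. Of 5 other Igfbp genes 2 rose and 1 fell in wild type, Igfbp2 higher by 0.72 ± 0.15 SE (adjusted p = 0.00493) and Igfbp7 lower by a difference of -0.91 ± 0.13 SE (adjusted p = 0.000339), and 0 passed in deleted cells (1 at an unadjusted p under 0.05). Of 5 Wnt ligands 2 rose and 1 fell in wild type, and 1 rose and 1 fell in deleted cells. Wnt4 rose by 0.62 ± 0.14 SE and 0.53 ± 0.14 SE (adjusted p = 0.00757 and 0.0308), Wnt3 by 0.55 ± 0.12 SE in wild type (adjusted p = 0.00686), and Wnt3a fell by 0.93 ± 0.15 SE in deleted cells (adjusted p = 0.00113). Wnt3 was detected on 6 arrays and Wnt3a on 7. Their low groups, at 6.23 (Wnt3, wild type with LIF) and 6.55 (Wnt3a, deleted without LIF), lay below or at the detection floor. The filter could thus keep both genes through a group where they were high. Of 5 Wnt targets 1 rose in wild type, Axin2 by 0.72 ± 0.20 SE (adjusted p = 0.0206), and 0 in deleted cells (2 at an unadjusted p under 0.05). Among anchors Pkp2, a desmosome plaque protein, rose by 0.58 ± 0.17 SE in wild type (adjusted p = 0.028) and 0 passed in deleted cells (1 at an unadjusted p under 0.05). Among other filaments Nes, nestin, rose by 0.84 ± 0.17 SE and 0.58 ± 0.17 SE (adjusted p = 0.00316 and 0.0442). The 1 kept other Cdx gene did not pass, also at an unadjusted p.

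Some cell type markers also differed between cultures. At 1 probe per gene 20.2% of all genes passed between cultures in wild type and 10.2% in deleted cells. Between genotypes 8.7% passed with LIF and 9.18% without. Of 8 ES cell markers 3 fell and 0 rose in wild type and 4 fell and 0 rose in deleted cells, and their summed linear level was 41864 to 44641 in wild type and 41296 to 44801 in deleted cells with LIF against 28922 to 31957 and 34626 to 36211 without. Dppa5a, at group means of 14.46 to 15.01, was the brightest of the 8, and the sums follow mainly this gene. Between genotypes 1 of the 8 fell with LIF, Pou5f1 (-0.495 ± 0.12 SE, limma adjusted p = 0.0277). Without LIF 1 rose, Dppa5a (0.42 ± 0.10 SE, limma adjusted p = 0.0245), and 1 fell, Pou5f1 (-0.87 ± 0.12 SE, limma adjusted p = 0.00124). The median difference of the 8 was -0.292 with LIF and -0.265 without, against 0.025 and 0.003 over all genes. Of 7 kept endoderm markers 1 rose and 1 fell in either genotype, of 3 fibroblast markers 0 passed (0 in wild type and 1 in deleted cells at an unadjusted p under 0.05), and of 5 surface ectoderm markers 1 fell in either genotype. The part of these cells in the keratin, Tfap2c and Igfbp3 values was not tested.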

How the data were processed

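RNA from 12 samples was measured on 1-colour bead arrays. Per the file headers the deposited non-normalized table held mean bead intensity and a detection p-value for 45281 probes, and the processed table held the authors' intensity values on a linear scale, with 1 minimum (86.5) and 1 maximum (35095) in all columns; the normalization is not given in the sources used here, and GenomeStudio is named per the submitters' processing notes. Processed intensities, named by sample, were corrected with normexp (offset 50), taken to log2 and quantile normalized. Detection p-values were joined by identical rank order. A probe was kept (15999 were) where a group had it detected at a p-value under 0.05 on its 3 arrays. Group means were fitted with limma 3.58.1 (R 4.3.3; 8 residual degrees of freedom; tested on simulated data), with two-sided tests and Benjamini-Hochberg adjustment over kept probes; the array number limits precision (median SE 0.14).

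Members, lists and comparisons were chosen with earlier results of these data known. All member probes are described; of each wider list, represented by its brightest kept probe per gene, counts are given and up to 4 genes of smallest adjusted p could be named, of which a part is. The 10 symbols matched RefSeq (GRCm38.p6); probe positions were not analysed here. Replicate numbers come from the labels. Deviations from group means correlated at 0.251 to 0.668 in 6 of 6 same-numbered pairs within a culture, above the limit of 0.1, so blocked values are given for deleted against wild type. Across cultures the same-numbered pairs correlated at -0.046 to 0.549, and 10 of 12 were above 0.1. The replicate block joins numbers across cultures, and blocked values between cultures are given where a member call changed. The lists covered trophoblast genes, keratins, Rhox, Tfap2, Cdx, Wnt and Igfbp families, Wnt targets, the insulin-like growth factor axis, anchors, other filaments, and markers of ES cells, endoderm, fibroblasts and surface ectoderm. Alternatives were other corrections and scalings, filters, 1 probe per gene, blocks, fewer arrays and the other naming. Columns not used numbered 0.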

Additional observations from a re-analysis of the deposited data

How the results depend on the processing

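Among the 13 probes, the 5 calls between deleted and wild type cells with LIF became 8 with median scaling, 3 with no filter on dim probes, 11 with the replicate block, 11 with the replicate block within each culture (chosen after seeing the data) and 8 under the other naming, and 3 to 7 when 1 array was left out. The 8 calls without LIF became 4 with a neqc-type correction, 4 with median scaling, 4 with no filter, 2 with only the arrays compared and 5 under the other naming, and 2 to 9 with 1 array left out. Between cultures, the 8 calls in wild type cells became 5 at 1 probe per gene (7 to 8 with 1 array left out), and the 5 in deleted cells became 3 with median scaling and 3 at 1 probe per gene (3 to 6). Fewer probes were tested at 1 probe per gene; the cause of the other changes was not tested. The interaction gave 0 calls as reported and when any 1 array was left out, and 1 with the block within each culture. Over all probes, calls fell to 1.31%, 1.56%, 4.42% and 2.07% with no filter, to 2.4% without LIF, 7.54% in wild type and 5.51% in deleted cells with median scaling, and to 3.48% without LIF with only the arrays compared. They rose to 11.8% without LIF with probes detected at 0.01 on all 12 arrays, and to 17.1%, 17.3%, 27.8% and 15.8% with the replicate block, against 7.19%, 7.72%, 18% and 8.75%. Beside the member probes given with it, the replicate block changed no other call.

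The other naming reversed 15 member differences. Between genotypes these were Igfbp3 on ILMN_2727503, -0.57 with LIF and 0.10 without. In wild type cells without LIF the values became -1.05 for Krt8, -1.35 for Krt18, -0.66 for Krt19, 0.77, 1.22 and 1.24 for Tfap2c and -1.59 and -0.87 for Igfbp3; in deleted cells -1.02 for Krt18, -0.92 for Krt19 and 0.78, 1.10 and 1.16 for Tfap2c. Of the wider lists 27 reversed: in wild type Tfap2a -0.90, Fgfr2 -1.03, Krt42 1.87, Rhox13 1.16, Rhox10 1.72, Rhox5 0.63, Wnt3 -0.52, Wnt4 -0.60, Axin2 -0.70, Igfbp7 0.89, Igfbp2 -0.72, Irs2 -1.32, Igf2 -0.96, Pkp2 -0.58 and Nes -0.82; in deleted cells Id2 -1.11, Fgfr2 -1.29, Krt42 1.52, Rhox10 1.68, Rhox13 0.89, Rhox5 0.75, Tfap2a -0.56, Wnt3a 0.91, Wnt4 -0.51, Igf2 -1.19, Irs2 -1.19 and Nes -0.57. These reversals follow from exchanging the cultures. A further 24 member values turned sign there with no call on either side, as did 6 with median scaling, 2 with plain log2, 1 with the neqc-type correction and 32 of the fits that left out 1 array. Dim probes near the floor of 6.44 to 6.61 understate differences.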
